A study of Mus musculus with 4 samples.

Results

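Wnt signalling was read here through 36 genes that act at or outside the cell surface: 18 Wnt ligands, 3 R-spondins and 15 receptors or co-receptors, which are 10 Frizzleds, Lrp5, Lrp6, Ror1, Ror2 and Lgr5. The genes were chosen by name, but with earlier results of these data known. All 36 were found among the 22180 genes that had a probe set with exactly 1 gene symbol. Where a gene had several such probe sets, the brightest on average over the 4 arrays was kept. The RNA came from tissue around the tibiotalar (ankle) joint, labelled as synovium, of male C57BL/6J mice that were 12 weeks old. The arthritic group was 2 pools of 10 mice each at day 10, the peak of inflammation, after intraperitoneal injections of 150 microlitres of arthritis-inducing serum on days 0, 2 and 7. The nonarthritic group was 2 pools of 3 mice each, given phosphate buffered saline instead and labelled day 0. All 4 pools carry the label K/BxN as the source strain of the serum, which for the nonarthritic pools conflicts with the saline. The groups therefore also differ in labelled day and in the number of mice per pool, and these cannot be told apart from the arthritis itself. Each pool was hybridised to 1 Affymetrix mouse gene array.

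Wnts are secreted, lipid-modified glycoproteins that bind Frizzled receptors. With the co-receptors Lrp5 and Lrp6 they stabilise beta-catenin, and through Ror1 and Ror2 they can signal without it. R-spondins bind Lgr receptors and protect Frizzleds from the ubiquitin ligases Znrf3 and Rnf43, so they strengthen the response to a Wnt. In joints the pathway is known for its roles in synovial joint formation, cartilage homeostasis and bone formation.

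The lubricin gene Prg4, a defining marker of synovial lining, was bright in both groups and had mean log2 signals of 13.66 and 13.40 in nonarthritic and arthritic synovium. Other tissues were in the samples too, and their marker lists moved with the arthritis. Of the markers measured, 7 of 7 neutrophil genes and 7 of 10 fibroblast genes rose, while 7 of 7 adipocyte genes, 8 of 9 skeletal muscle genes and 3 of 5 lining fibroblast genes fell. The mean log2 signal of the adipocyte list ran from 11.0 to 11.1 in nonarthritic pools and from 8.41 to 8.82 in arthritic pools. For skeletal muscle it ran from 10.7 to 11.1 and from 8.31 to 8.79, and for neutrophils from 7.16 to 7.57 and from 10.3 to 10.6. In a bulk sample, fewer cells of a type and less RNA per cell cannot be told apart.

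In arthritic synovium 6 of the 36 Wnt genes rose, 3 fell and 27 did not pass the test. Fzd1 and Fzd2, the noncanonical receptors Ror1 and Ror2, the R-spondin receptor Lgr5 and the ligand Wnt2b rose, by 1.66-fold to 2.18-fold. Fzd4, Wnt11 and Rspo3 fell, being 2.13-fold, 1.78-fold and 1.62-fold higher in nonarthritic synovium. With any 1 of the 4 pools left out, 0 of the 36 passed. Rises and falls here are genes with a Benjamini-Hochberg adjusted p under 0.05 in limma, adjusted over all 22180 genes. The 9 called genes were 25% of the set, against 15.3% of all genes. The 6 that rose were 16.7% of the set against 8.72% of all genes, and the 3 that fell were 8.33% against 6.62%. Many genes of the array are dim, and of the 13804 genes with a mean over the 4 arrays above 6.98, the level that 95% of olfactory receptor genes did not exceed, 22.3% were called, against 9 of the 29 Wnt genes above that level (31%).

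Both arthritic pools lay above both nonarthritic pools in 16 of the 36 genes and below them in 6, and the groups overlapped in 14. Over all genes 30.2% lay wholly above and 26.1% wholly below, 56.4% together. The median log2 fold change of the 36 genes was 0.115, and 0.005 over all genes. Centring the arrays on their medians moved the median of all genes to 0.1 and that of the 36 genes to 0.21.

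**Figure D1:**
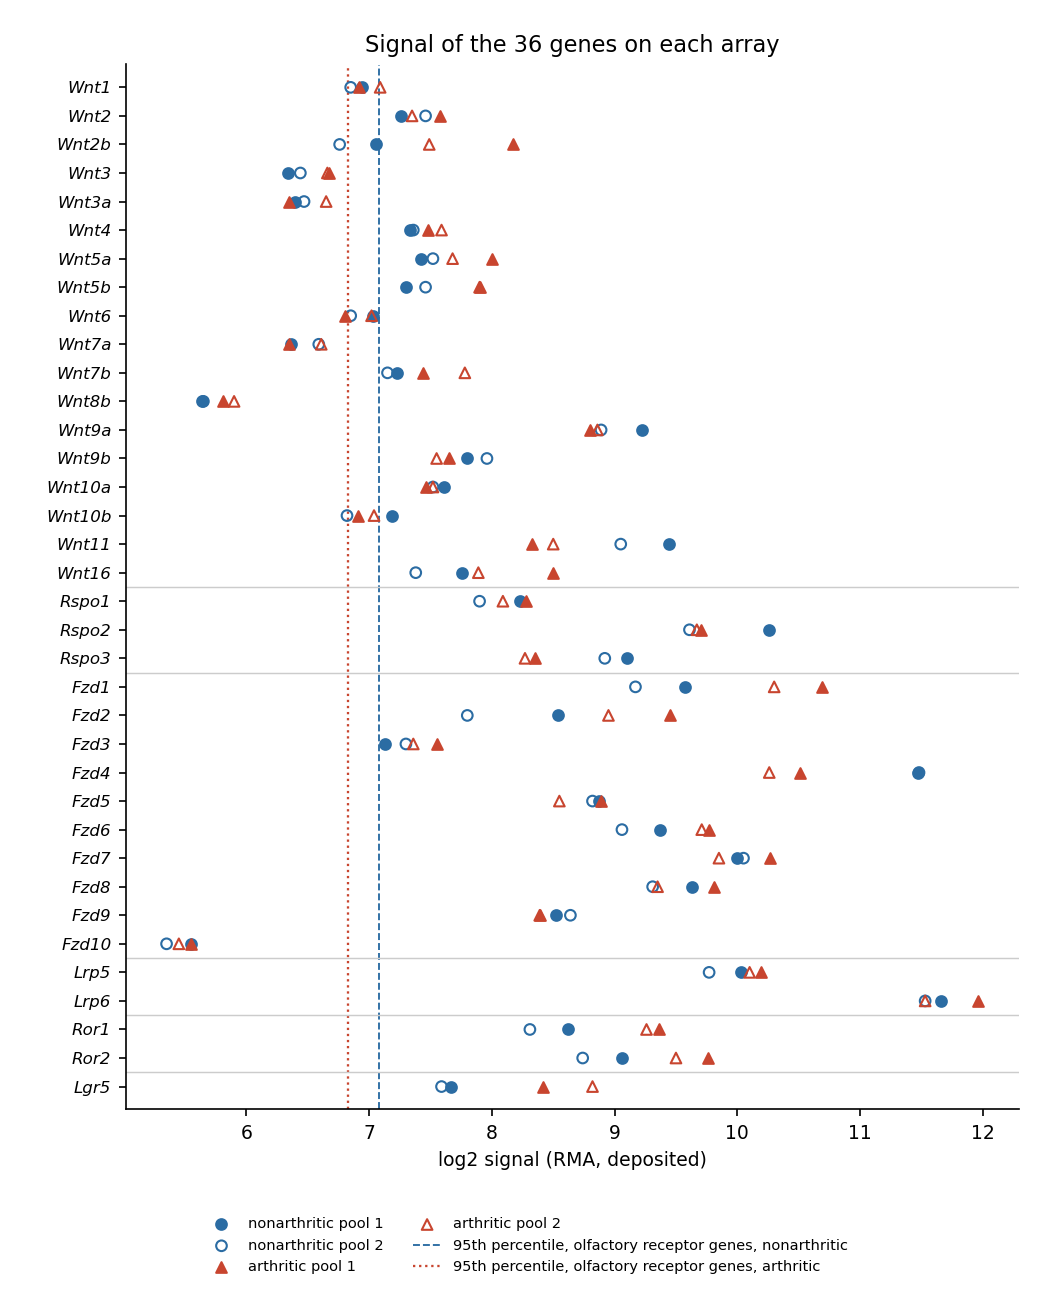
Deposited log2 signal of each of the 36 genes on the 4 arrays (circles for nonarthritic and triangles for arthritic pools, filled for pool 1 and open for pool 2), grouped as ligands, R-spondins, Frizzleds, LRP, ROR and LGR genes. The dashed and dotted lines are the 95th percentiles of the group means of olfactory receptor genes, 7.08 in nonarthritic and 6.83 in arthritic pools; the group means of 27 genes lie to the right of their lines and those of 5 lie to the left in both groups.

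No detection calls were used, so the signals were set against those of 1105 olfactory receptor genes, a family that serves smell in the nasal epithelium. The level that 95% of them did not exceed was 7.08 in the nonarthritic and 6.83 in the arthritic group means. By this measure 5 of the 36 genes were near background in both groups: Wnt3, Wnt3a, Wnt7a, Wnt8b and Fzd10. None of these 5 passed the test in limma, 0 of them also had an unadjusted p under 0.05, and their log2 fold changes ran from 0.005 to 0.275. A further 4 ligands, Wnt1, Wnt2b, Wnt6 and Wnt10b, were above the level in arthritic synovium only. The arthritic means of Wnt1 (7.005), Wnt6 (6.91) and Wnt10b (6.975) were under 7.08, so the lower arthritic level alone places these ligands here. Wnt10b had a nonarthritic mean of 7.005, and neither it nor Wnt6 had a higher signal in arthritic synovium. Just inside was Wnt6, with means of 6.94 and 6.91, and just outside was Wnt3, with 6.39 and 6.67. Of the 4 ligands above the level in arthritic synovium only, Wnt2b alone was called. For a gene near background in 1 group the fold change can be understated, but its estimate is not a minimum. The remaining 27 genes were above the level in both groups, 10 of them ligands. Signals of different probe sets do not measure relative amounts, so no order of abundance between genes is read from them.

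By role, 2 of 18 ligands, 6 of 15 receptors and 1 of 3 R-spondins were called. Over all genes 15.3% were called, and 22.3% of those with a mean above 6.98. The median size of the log2 fold change without regard to sign was 0.218 over the ligands, 0.245 over the receptors and 0.24 over all genes. The median with sign was 0.107 for ligands, 0.24 for receptors and -0.25 for R-spondins. With 1 pool left out at a time these medians ran from 0.08 to 0.202, from 0.115 to 0.34 and from -0.575 to 0.075. The ligand median was above the receptor median without nonarthritic pool 2 (0.162 and 0.115) and without arthritic pool 1 (0.202 and 0.145), so no order of the roles is read from them, and the difference was not tested. In at least 1 group 14 of the 18 ligands and 14 of the 15 receptors were above the olfactory receptor level.

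**Figure D2:**
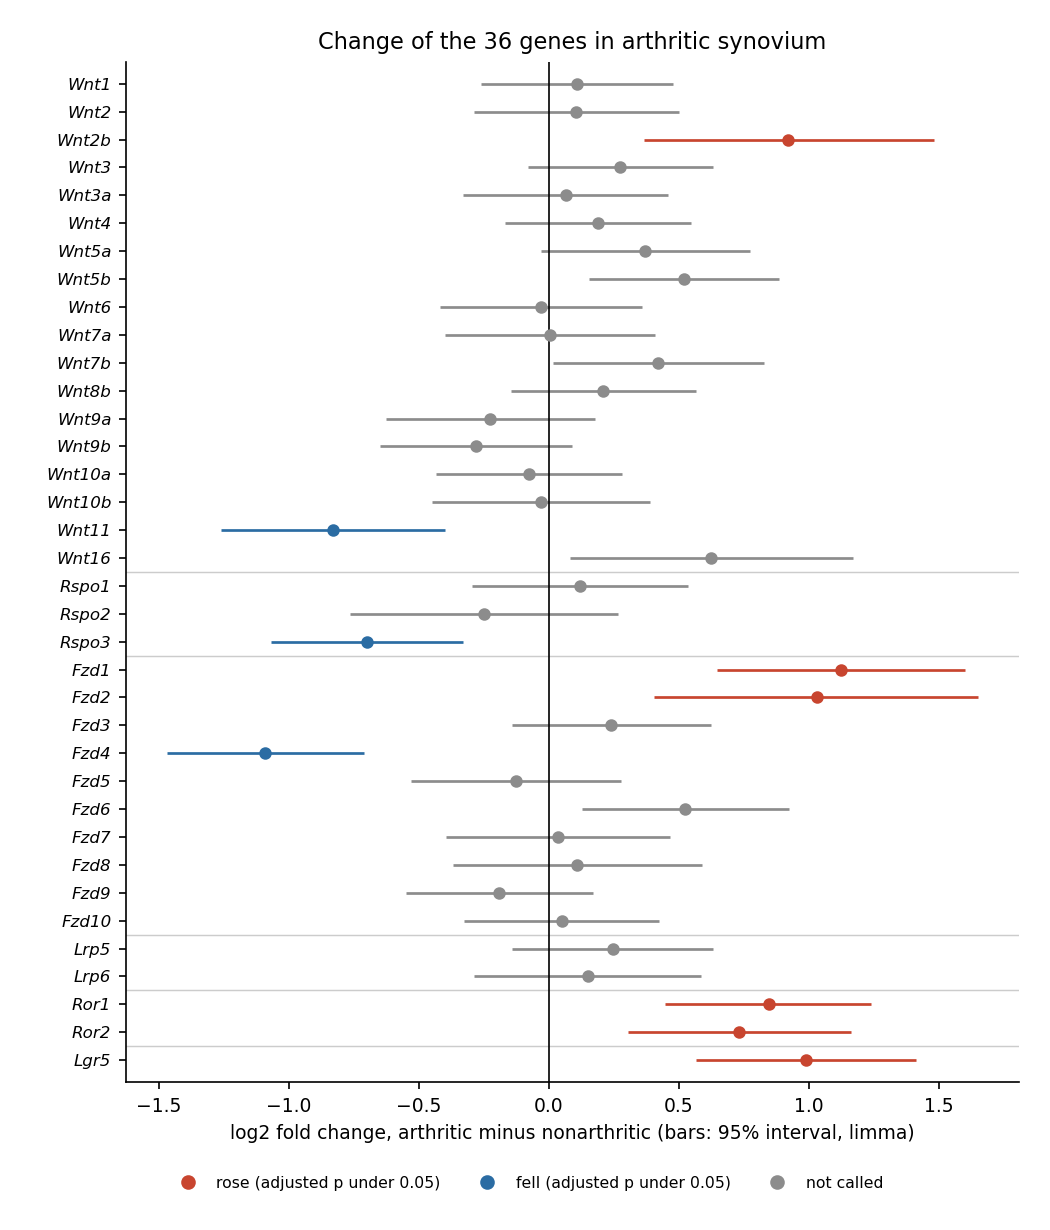
Log2 fold change of each of the 36 genes, arthritic minus nonarthritic, with the 95% interval from limma (unadjusted), in the same order as the signals. Red points rose and blue points fell (adjusted p under 0.05): Fzd1 at 1.12 and Fzd4 at -1.09 are the ends of the range, and 24 of the 27 grey points lie within 0.5 of 0.

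Among the ligands, Wnt2b, a ligand that signals through beta-catenin, read 7.06 and 6.76 in nonarthritic pools 1 and 2 and 8.17 and 7.49 in arthritic pools 1 and 2. The arthritic pools were both higher but stood 0.68 apart. Wnt2b rose 1.89-fold, from 6.91 ± 0.21 to 7.83 ± 0.48 (log2 signals, SD over n = 2 pools). Wnt2b had a log2 fold change of 0.92 ± 0.24 SE (limma adjusted p = 0.038). Its log2 fold change was 1.26 without arthritic pool 2 and 0.58 without arthritic pool 1. Its closest relative, Wnt2, overlapped between groups, with 7.26 and 7.46 against 7.58 and 7.35.

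Wnt11, a ligand known for signalling without beta-catenin and for guiding cell movement, went the other way. It read 9.44 and 9.05 in the nonarthritic pools and 8.33 and 8.50 in the arthritic pools, with no overlap. Its mean fell from 9.25 ± 0.28 to 8.42 ± 0.12 (log2 fold change -0.83 ± 0.19 SE, limma adjusted p = 0.0213). On each array the Wnt2b signal less the Wnt11 signal, a value that adding a constant to an array cannot change, was -2.38 and -2.29 in nonarthritic and -0.16 and -1.01 in arthritic pools. This pair was picked after the values were seen, and the change in its difference, 1.75 on the log2 scale, was not tested. That change can be understated, since Wnt2b was near background in nonarthritic pools.

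Wnt16, a ligand known for guarding cortical bone, read 7.76 and 7.38 in nonarthritic and 8.50 and 7.89 in arthritic pools. The groups did not overlap, but the nearest pools were only 0.13 apart and the arthritic pools differed by 0.61. Its log2 fold change of 0.63 ± 0.24 SE did not pass (limma adjusted p = 0.121, 95% interval 0.08 to 1.17). The noncanonical ligands Wnt5a and Wnt5b, named here after their values were seen, also lay higher in both arthritic pools. Wnt5b read 7.30 and 7.46 against 7.90 and 7.90, with a log2 fold change of 0.52 ± 0.16 SE (limma adjusted p = 0.0635). With arrays centred on their medians its adjusted p was 0.0408, and over its 6 alternatives that kept all 4 pools unblocked it ran from 0.0285 to 0.074. Wnt5a had 7.42 and 7.52 against 8.0 and 7.68, and its log2 fold change of 0.37 ± 0.17 SE did not pass (limma adjusted p = 0.208, 95% interval -0.03 to 0.77).

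The other 13 ligands, beside Wnt2b, Wnt11, Wnt16, Wnt5a and Wnt5b, had log2 fold changes between -0.28 for Wnt9b and 0.42 for Wnt7b. Wnt7b, Wnt4, Wnt3 and Wnt8b were higher in both arthritic pools, with nearest pools 0.21, 0.12, 0.22 and 0.16 apart. Wnt9a and Wnt9b were lower in both, by log2 fold changes of -0.23 and -0.28, and their intervals of -0.63 to 0.18 and -0.65 to 0.09 held 0. The groups overlapped or touched in the other 7, which were Wnt1, Wnt2, Wnt3a, Wnt6, Wnt7a, Wnt10a and Wnt10b. For Wnt10b, a ligand that favours bone over fat formation, the 95% interval of the log2 fold change was -0.45 to 0.39.

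Of the 3 R-spondins 1 fell and 2 did not pass. Rspo3, which supports blood vessel growth and bone strength, read 9.10 and 8.92 in nonarthritic and 8.35 and 8.27 in arthritic pools. The arthritic pools were both lower and nearly the same. Rspo3 fell from 9.01 ± 0.13 to 8.31 ± 0.06 (log2 fold change -0.70 ± 0.16 SE, limma adjusted p = 0.0232). The call ended when arrays were centred on their medians (log2 fold change -0.61, limma adjusted p = 0.0563). Rspo2, a driver of limb growth, read 10.26 and 9.61 against 9.70 and 9.67: the nonarthritic pools stood 0.65 apart and enclosed both arthritic pools. Rspo1 overlapped as well, with 8.23 and 7.90 against 8.28 and 8.09.

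The receptor of the R-spondins in the set, Lgr5, a marker of stem cells in several epithelia, rose while Rspo3 fell. Lgr5 read 7.67 and 7.59 in nonarthritic and 8.42 and 8.82 in arthritic pools, a wide gap between groups. Its mean rose 1.99-fold, from 7.63 ± 0.06 to 8.62 ± 0.28 (log2 fold change 0.99 ± 0.18 SE, limma adjusted p = 0.00992). A second, dimmer probe set of Lgr5 read 6.41 and 6.28 against 6.68 and 6.64, with no overlap, but both groups of this set were at or under the olfactory receptor level, so its difference of 0.315 is no measure of the size of the change. Averaging it with the brighter set gave 0.65 (limma adjusted p = 0.0302). The Lgr5 signal less the Rspo3 signal on the same array was -1.43 and -1.33 in nonarthritic and 0.07 and 0.55 in arthritic pools, again without a test and chosen after the values were seen. Of the other Lgr genes, outside the set, Lgr6 fell (log2 fold change -0.90 ± 0.17 SE, limma adjusted p = 0.00968), and Lgr4 was at -0.25 (limma adjusted p = 0.396).

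The Frizzleds split. Fzd1 read 9.57 and 9.17 in nonarthritic and 10.69 and 10.30 in arthritic pools, and Fzd2 read 8.54 and 7.80 against 9.45 and 8.95. Both belong to the subfamily of Fzd1, Fzd2 and Fzd7, and in both the groups did not overlap. Fzd1 rose 2.18-fold, from 9.37 ± 0.28 to 10.50 ± 0.28 (log2 fold change 1.12 ± 0.21 SE, limma adjusted p = 0.00961). Fzd2 rose 2.04-fold, from 8.17 ± 0.52 to 9.20 ± 0.35 (log2 fold change 1.03 ± 0.27 SE, limma adjusted p = 0.0386), but its nonarthritic pools differed by 0.74. Quantile normalization applied again took Fzd2 to an adjusted p of 0.0504 in limma, and leaving out nonarthritic pool 1 or 2 gave log2 fold changes of 1.40 and 0.66. Fzd7, the third of the subfamily, read 10.00 and 10.05 against 10.27 and 9.85. The arthritic pools of Fzd7 lay on both sides of the nonarthritic ones, and the 95% interval of its log2 fold change was -0.39 to 0.46.

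Fzd4, a receptor of retinal and other blood vessels, read 11.47 and 11.48 in nonarthritic and 10.51 and 10.26 in arthritic pools. The distance between the nearest pools, 0.96 on the log2 scale, was the widest of the 36 genes. Its mean fell from 11.48 ± 0.01 to 10.39 ± 0.18 (log2 fold change -1.09 ± 0.17 SE, limma adjusted p = 0.00411), so that the signal was 2.13-fold higher in nonarthritic synovium. The Fzd1 signal less the Fzd4 signal, read within each array, was -1.90 and -2.31 in nonarthritic and 0.18 and 0.04 in arthritic pools. That change of 2.22 on the log2 scale does not depend on a constant added to an array; the pair was picked after the values were seen, and the change was not tested. Of 7 endothelial markers measured, 2 rose in limma, Tie1 (log2 fold change 0.82) and Kdr (0.73), and 0 fell. An unadjusted p under 0.05 was found in 4: Tie1, Kdr, Cdh5 and Tek. Cdh5 was higher in both arthritic pools (0.4) and Tek was lower in both (-0.71), and neither was called. The endothelial list's mean signal ran from 10.4 to 10.5 in nonarthritic and from 10.4 to 10.8 in arthritic pools. Adipocyte, skeletal muscle and lining fibroblast markers fell alongside Fzd4, Wnt11 and Rspo3, with median log2 fold changes of -2.55, -2.82 and -1.39. Of pericyte and smooth muscle markers 2 of 6 fell, Myh11 (-1.41) and Tagln (-0.96), and 0 rose. Falls were also called in 3 of 4 Schwann cell, 3 of 4 B cell, 3 of 7 osteoblast and osteocyte, 4 of 8 macrophage and 3 of 9 chondrocyte markers. Of these last lists, 1 macrophage and 4 chondrocyte markers rose. The part of any of these lists in the falls of Fzd4, Wnt11 and Rspo3 was not tested.

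The promoters of these genes are shown because Fzd1 and Fzd4 are the receptors that moved most, in opposite directions, and Ror2 and Wnt11 are called genes in which a searched motif was found. The letters are the 250 bases before the start site, 5′ to 3′ on the gene's strand, from RefSeq on build GRCm38.p6. Capitals mark a motif on either strand.
Fzd1 (chr5:4758217-4758466, minus strand): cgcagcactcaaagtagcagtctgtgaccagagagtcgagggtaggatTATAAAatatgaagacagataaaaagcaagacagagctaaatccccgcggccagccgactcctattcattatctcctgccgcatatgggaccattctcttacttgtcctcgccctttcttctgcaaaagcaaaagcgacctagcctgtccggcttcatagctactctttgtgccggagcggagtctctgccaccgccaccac
Fzd4 (chr7:89404116-89404365, plus strand): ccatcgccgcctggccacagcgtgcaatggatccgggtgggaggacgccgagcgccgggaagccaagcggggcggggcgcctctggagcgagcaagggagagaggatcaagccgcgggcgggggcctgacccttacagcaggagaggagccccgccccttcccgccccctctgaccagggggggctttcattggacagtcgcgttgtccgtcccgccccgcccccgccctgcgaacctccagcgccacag
Ror2 (chr13:53286125-53286374, minus strand): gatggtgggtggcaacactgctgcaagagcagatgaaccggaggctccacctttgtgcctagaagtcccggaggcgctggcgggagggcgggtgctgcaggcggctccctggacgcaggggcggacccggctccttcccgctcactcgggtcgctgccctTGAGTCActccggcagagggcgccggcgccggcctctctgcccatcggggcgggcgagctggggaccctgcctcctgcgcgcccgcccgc
Wnt11 (chr7:98834862-98835111, plus strand): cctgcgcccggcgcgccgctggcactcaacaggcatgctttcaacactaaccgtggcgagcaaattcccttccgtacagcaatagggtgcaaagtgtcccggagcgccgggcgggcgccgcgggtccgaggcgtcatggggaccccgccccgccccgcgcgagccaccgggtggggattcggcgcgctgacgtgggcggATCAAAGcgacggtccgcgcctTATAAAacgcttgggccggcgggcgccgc

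Of the 36 genes 24 had an entry in the promoter table, with 27 windows, since Wnt11 had 2 and Wnt5b had 3. Searched on both strands were a TCF/LEF core, ATCAAAG, an AP-1 site, TGANTCA, and a TATA box, TATAAA; no match overlapped another in the windows shown. The capitals are TATAAA in Fzd1, far from the start site, TGAGTCA in Ror2, and ATCAAAG and TATAAA in the first window of Wnt11. Fzd4 holds none of the 3 motifs. Of the 27 windows 2 held the TCF/LEF core (Wnt11 and Wnt5b), 2 the AP-1 site (Ror2 and Wnt5b) and 2 the TATA box (Fzd1 and Wnt11). Over all 32851 windows of the table the shares were 3.21%, 6.75% and 12.4%. The median content of G and C was 71.6% in the 27 windows and 52.4% in all, and the median number of CG steps was 23 against 6. A match describes letters and is not a measured site.

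The other 6 Frizzleds, none of which passed, had log2 fold changes from -0.19 for Fzd9 to 0.53 for Fzd6. Fzd6, a receptor of hair and skin polarity, came nearest, with 9.37 and 9.06 in nonarthritic and 9.77 and 9.71 in arthritic pools. Its log2 fold change of 0.53 ± 0.17 SE had an adjusted p of 0.0806 in limma. Its partner in the same subfamily, Fzd3, read 7.13 and 7.30 against 7.55 and 7.36, with its nearest pools 0.06 apart. Fzd5 and Fzd8, another related pair, overlapped between groups, with 95% intervals of -0.53 to 0.28 and -0.37 to 0.59. Fzd9 was lower in both arthritic pools (8.52 and 8.64 against 8.39 and 8.39), and Fzd10 was near background on every array.

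Neither Lrp co-receptor of the beta-catenin branch passed the test, and both Ror receptors rose. Lrp5, whose loss weakens bone, read 10.03 and 9.77 in nonarthritic and 10.19 and 10.10 in arthritic pools. Lrp6 read 11.66 and 11.53 against 11.96 and 11.53, so that 1 arthritic pool equalled a nonarthritic pool. The 95% intervals of their log2 fold changes were -0.14 to 0.63 and -0.29 to 0.59. A second probe set of Lrp6 gave -0.155.

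Ror1 and Ror2 are receptor tyrosine kinase-like proteins that bind Wnt5a. Ror1 read 8.62 and 8.31 in nonarthritic and 9.36 and 9.26 in arthritic pools, and Ror2 read 9.06 and 8.74 against 9.76 and 9.50. No arthritic pool of either gene reached down to a nonarthritic pool. Ror1 rose 1.8-fold, from 8.47 ± 0.22 to 9.31 ± 0.07 (log2 fold change 0.85 ± 0.17 SE, limma adjusted p = 0.0149). Ror2 rose 1.66-fold, from 8.90 ± 0.23 to 9.63 ± 0.18 (log2 fold change 0.73 ± 0.18 SE, limma adjusted p = 0.0332). Fibroblast markers rose beside Ror1, Ror2, Fzd1 and Fzd2: the mean signal of the 10 genes ran from 11.8 to 12.0 in nonarthritic pools and was 12.6 in both arthritic pools, and the median log2 fold change was 0.69. Neutrophil markers rose too, and the part of either list in the rise of the receptors was not tested.

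Every one of the 9 calls needed all 4 arrays. In limma 0 of the 36 genes passed when either nonarthritic pool was dropped, with 10 (pool 1 dropped) and 9 (pool 2 dropped) at an unadjusted p under 0.05. Dropping either arthritic pool also left 0, with 8 and 12 at an unadjusted p under 0.05, against 13 with all pools. Over all genes the calls also dropped, to between 47 and 637 rises and between 105 and 584 falls. The groups did not overlap in any of the 9 genes, so none of these fits could change a direction, and the constant direction is no support. Their log2 fold changes without 1 pool ran from 0.57 to 1.40 for the rises and from -0.61 to -1.22 for the falls. Within groups, nonarthritic pool 1 exceeded nonarthritic pool 2 in 8 of the 9 genes (88.9%, median gap 0.31), against 53.9% of all genes (median gap 0.03). Arthritic pool 1 exceeded arthritic pool 2 in 7 of the 9 (77.8%, median gap 0.25), against 48.9% of all genes (median gap 0).

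**Figure D3:**
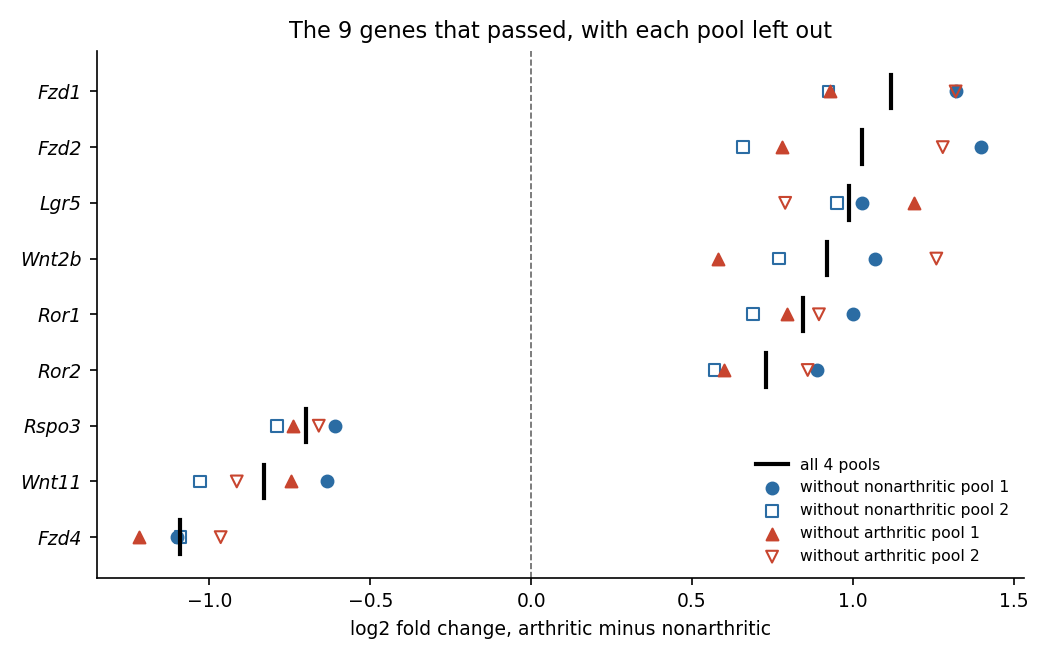
Log2 fold change of the 9 genes that passed, arthritic minus nonarthritic, with all 4 pools (black bar) and with each pool left out (symbols). All symbols of a gene lie on the same side of 0, which is fixed in advance where the groups do not overlap. Fzd2 spreads most, from 0.66 to 1.40.

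Genes that make, hold, block or pass on the Wnt signal were read from 8 lists outside the 36 genes. Of their 99 genes 96 were measured, and 91 were above the olfactory receptor level in at least 1 group. Over all genes 8.72% rose and 6.62% fell, and 22.3% of those with a mean above 6.98 were called. Of the 96 pathway genes 14 rose and 16 fell. Dropping nonarthritic pool 1 or 2 left 7 and 2 rises and 4 and 3 falls, and dropping arthritic pool 1 or 2 left 1 and 1 rises and 5 and 0 falls (limma). Both genes of Wnt export rose: Porcn, the enzyme that attaches the lipid, by 0.91 ± 0.17 SE and Wls, the carrier that takes Wnts to the surface, by 0.56 ± 0.16 SE on the log2 scale (limma adjusted p = 0.0103 and 0.0496). Of 8 relatives of the receptors and ligands, Ptk7, a co-receptor of planar polarity, rose from 7.47 ± 0.41 to 9.64 ± 0.15 (log2 fold change 2.17 ± 0.22 SE, limma adjusted p = 0.00069), and Smo, the Frizzled-like protein of Hedgehog signalling, rose by 0.86. Lgr6 fell, and the other 5 did not pass. Among 4 genes of receptor turnover Znrf3, the ligase that removes Frizzleds, fell (-0.63 ± 0.15 SE, limma adjusted p = 0.0297).

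Secreted antagonists moved most among these lists, in both directions: of 15, 4 rose and 8 fell, with a median log2 fold change of -0.68. The Frizzled-related proteins Sfrp2 (2.20) and Sfrp1 (1.64) rose, and Wif1 (-2.02), Frzb (-1.91), Sfrp5 (-1.59) and Dkk2 (-1.39) fell. The median of all genes was 0.005. Of 10 surface proteoglycans, Gpc1 (1.19) and Sdc1 (1.16) rose and Gpc3 (-1.04) and Sdc2 (-0.79) fell. Gpc3, a glypican that restrains growth, and the syndecans also bind other growth factors.

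Inside the cell no gene of the beta-catenin route passed in limma: 0 of 23 measured genes rose or fell, and 4 had an unadjusted p under 0.05. Over all genes 15.3% were called, and 22.3% of those with a mean above 6.98. Both arthritic pools lay above both nonarthritic pools in 12 of the 23 and below them in 4, against 30.2% and 26.1% of all genes. An absence of change is not read from this. Log2 fold changes ran from -0.56 for the transcription factor Tcf7l2 to 0.52 for the tankyrase Tnks. Beta-catenin itself, Ctnnb1, was at 0.41 ± 0.16 SE (limma adjusted p = 0.129). Of 13 feedback and common target genes, Ccn4 (2.18) and Ccn5 (0.64), secreted matricellular proteins, rose, and Tnfrsf19 (-0.76) and the membrane inhibitor Apcdd1 (-0.72) fell. Axin2, the most used reporter of the pathway, read 7.91 and 7.78 in nonarthritic and 7.51 and 7.36 in arthritic pools. Its pools did not overlap, and its log2 fold change of -0.41 ± 0.16 SE did not pass (limma adjusted p = 0.132).

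In the branch of planar polarity and calcium, 2 of 21 genes rose and 2 fell. Over all genes 8.72% rose and 6.62% fell, and 22.3% of those with a mean above 6.98 were called. No shift of the branch is read from these counts. The rises were Nfatc4 (1.2 ± 0.22 SE) and the cadherin Celsr3 (0.66 ± 0.165 SE, with a nonarthritic signal near background). The falls were Camk2b (-1.08) and the formin Daam1 (-0.72). Camk2b is also a gene of skeletal muscle, whose markers fell, and the part of muscle in the fall of Camk2b was not tested. The core polarity genes Vangl1 and Vangl2 were at 0.54 and 0.62 (limma adjusted p = 0.1 and 0.0733), and the median of the list was -0.05.

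**Figure D4:**
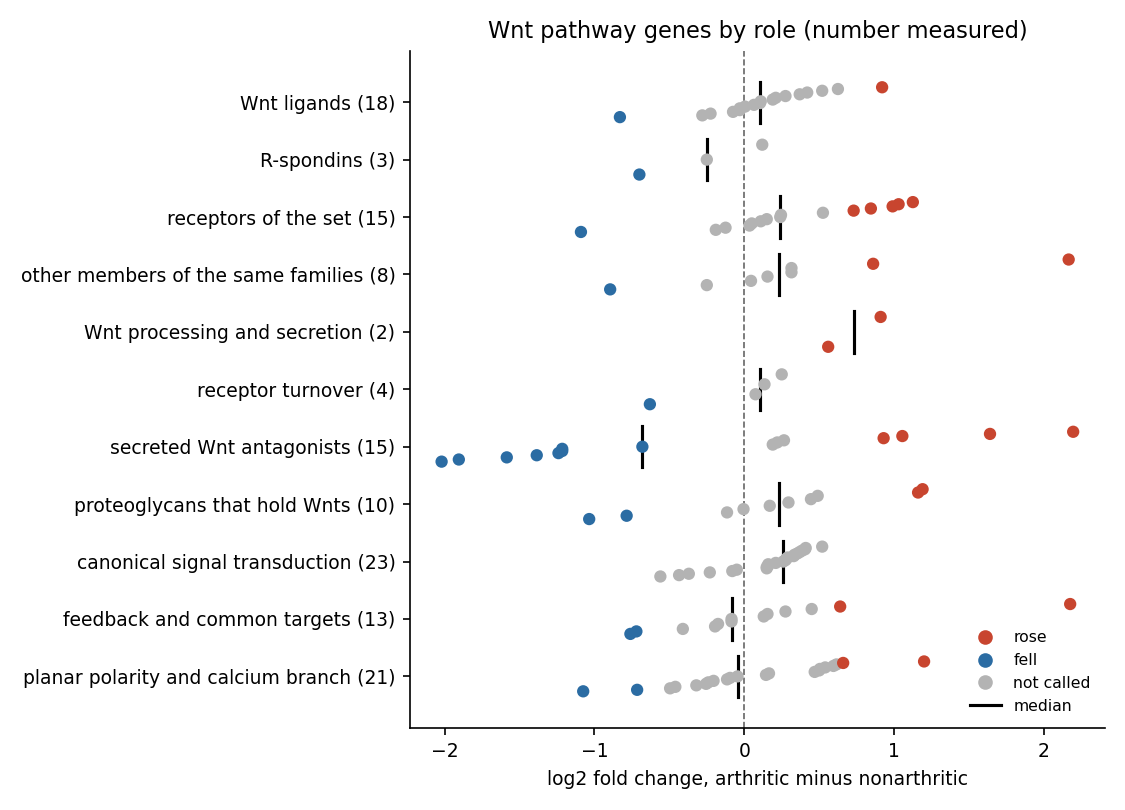
Log2 fold change, arthritic minus nonarthritic, of every measured gene of the set and of the 8 other lists, 1 point a gene, with the number measured in brackets; black bars are medians, red points rose and blue points fell. The secreted antagonists spread most, from -2.02 to 2.20, and all 23 points of the beta-catenin route are grey.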

How the data were processed

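Total RNA from 4 pools was measured on Affymetrix mouse gene 2.0 ST arrays, per the labels. The authors deposited a log2 signal for each probe set on each array. The submitters' processing notes name RMA (background correction, normalization between arrays and summary of probes), Affymetrix Power Tools and Affymetrix Expression Console, with no version or setting. That the scale is log2 follows from the range of the values, 2.89 to 14.27. A single gene symbol belonged to 23521 of 41345 probe sets, several to 1814 and none to 16010; the gene numbers of 23328 matched a RefSeq table (GRCm38.p6) and 0 symbols changed. The brightest probe set, by its mean, stood for each of 22180 genes. Arthritic and nonarthritic pools were compared with limma 3.58.1 (lmFit and eBayes, 2-sided, no block) in R 4.3.3, with 2 residual and 5.98 prior degrees of freedom. The fit was also run on simulated data with independent noise drawn from its own prior, which checks the computation and not the calls. Adjusted p-values cover all genes; they measure the spread between pools, not mice, and the number of arrays limits the precision. Errors of means are SD and those of fold changes SE.

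The members and lists were chosen with earlier results of these data known. Values on every array are given for a gene that was called, that changed at least 1.5-fold above the olfactory receptor level, or that was among the 5 brightest; of other lists the called genes are named, at most 6 a list. Other genes were named after their values were seen. Alternatives covered scaling, probe set choice, a dim-gene filter, the variance prior, a block by pool number and leaving out each pool.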

Additional observations from a re-analysis of the deposited data

How the results depend on the processing

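The 9 calls were compared over 6 alternatives that kept all pools and used no block. Of them 7 passed in all 6, while Fzd2 missed with quantile normalization again and Rspo3 with arrays centred on their medians. The dim-gene filter, which tests 14551 genes, added Wnt5b (limma adjusted p = 0.0389) and Fzd6 (0.05), for 8 rises. This filter keeps a gene that is above the olfactory receptor level in at least 1 group. Wnt2b passed it only through the arthritic group, where it is high, so its call under the filter adds no support. Median centring gave 7 rises and 2 falls, and the share of rises among all calls went from 56.8% to 67.1%. The median log2 fold change of the ligands was 0.202 with median centring and 0.198 with quantile normalization again (receptors 0.335 and 0.194), and that of all 36 genes was 0.21 and 0.184. Median centring adds the same amount to every log2 fold change, while quantile normalization again moved some genes up and others down. Uncalled genes near 0 changed sign: with median centring and quantile normalization again, Wnt6 gave 0.065 and 0.0762, Wnt10a 0.02 and 0.00875 and Wnt10b 0.065 and 0.0788. Fzd7 gave -0.0206 with quantile normalization again and Lrp6 -0.0025 with averaged probe sets.

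Leaving out 1 pool at a time left 0 rises and 0 falls among the 36 genes (6 and 3 with all), 47 to 637 rises and 105 to 584 falls among all genes, and 1 to 7 rises and 0 to 5 falls among the other pathway genes. Each fit then had 1 residual degree of freedom, and the lone pool is assumed to vary like the other group. The median was 0.08 to 0.202 for ligands, 0.115 to 0.34 for receptors, -0.575 to 0.075 for R-spondins (the sign turned without nonarthritic pool 1) and 0.107 to 0.217 for all 36. Log2 fold changes that crossed 0 ran from -0.01 to 0.22 for Wnt2, -0.085 to 0.215 for Wnt3a, -0.14 to 0.08 for Wnt6, -0.125 to 0.135 for Wnt7a, -0.215 to 0.155 for Wnt10b, -0.295 to 0.045 for Fzd5, -0.175 to 0.245 for Fzd7, -0.12 to 0.34 for Fzd8, -0.05 to 0.15 for Fzd10, -0.065 to 0.365 for Lrp6, -0.045 to 0.285 for Rspo1 and -0.575 to 0.075 for Rspo2.

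Pool numbers are shared between groups but nothing in the labels pairs them. The differences between pools 1 and 2 of each group correlated at 0.176 over all genes, which are not independent. With the pool number as a replicate block, 6 of the 36 genes rose and 2 fell, Wnt11 being lost (adjusted p = 0.0697), 1216 of all genes rose and 1027 fell, and 10 other pathway genes rose and 10 fell.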
